A study of Sus scrofa with 21 samples.

Results

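Oxidative phosphorylation is carried out by 5 protein complexes of the inner mitochondrial membrane, and most of their subunits are encoded in the nucleus. The genes described here are the 72 of 24358 in the count table whose pig symbol begins with NDUF, UQCR, ATP5 or COX4 to COX8, or is SDHA, SDHB, SDHC, SDHD or CYC1, leaving aside the 37 genes of the mitochondrial genome. They comprise 28 subunits of complex I, 7 assembly factors of complex I, 4 subunits of complex II, 7 of complex III, 15 of complex IV (NDUFA4 and its relative NDUFA4L2 included) and 11 of complex V. In all, 14692 genes of the table carry a symbol, so subunits listed only under an identifier are not covered. The series tested a 3D-printed microbrush drawn through a blood vessel of pigs (Sus scrofa) to collect endothelial cells, the lining cells of vessels. There were 10 microbrush libraries, from peripheral arteries of the kidney (5) and liver (5). A Nitinol wire without the brush, the negative control, gave 4 libraries, 2 per organ. Surgically taken aorta, the positive control, gave 4 libraries, and whole blood gave 3. Of these, 5 microbrush and 2 wire libraries came from pig 243K and as many from pig 248K, and the same pigs gave the blood. Every aorta library came from pig 237053, which gave nothing else. Pig and tissue therefore cannot be told apart for aorta, and p-values measure the spread between libraries rather than between animals. The labels give no age, strain or treatment.

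Complex I (NADH dehydrogenase) and complex II (succinate dehydrogenase) pass electrons to ubiquinone, complex III (cytochrome bc1) passes them to cytochrome c, and complex IV (cytochrome c oxidase) passes them to oxygen. Complexes I, III and IV pump protons, and complex V (ATP synthase) uses the return flow to make ATP. Nuclear subunits are joined with 13 subunits made from mitochondrial mRNAs, complex II excepted. Mature red cells of mammals have no mitochondria, while their precursors, leukocytes and platelets do.

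The microbrush libraries held 1144932 to 10188552 counts, the wire libraries 1946286 to 11128400 and the aorta libraries 1603229 to 3033008. Blood 1 had 5301288 counts and blood 3 had 3224540. Blood 2 had 5634 counts over 302 genes and none in the 72 genes, which allows a share of up to 0.0532% of its counts, counting error only. The other blood libraries had shares of 0.392% and 0.321%, above that limit. Blood 2 was left out because it had under 100000 counts, and blood was then represented by 1 library from each of 2 pigs. Microbrush 4 had counts for 3831 genes and 14 of the 72, and wire 2 had counts for 9715 genes and 32 of the 72. Each aorta library had counts for at least 68. Marker levels fitted the aorta label for smooth muscle (CPM, the scaled count per 1e6 counts, summed over 7 genes: 23610 to 49004, against 48.5 and 77.2 in blood). The smooth muscle sum ranged from 550 to 93833 CPM on the microbrush and from 270 to 1345 CPM on the wire. The 6 endothelial markers summed to 120 to 148 CPM in aorta and to 132 and 129 CPM in blood, and ranged from 150 to 2850 CPM in the microbrush libraries.

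Across the 20 libraries kept, the nuclear genes were expressed at low levels, and their gaps lay mainly in the libraries from the devices. A value of 0 was found for 78 of 288 gene and library pairs on the wire (27.1%) and 85 of 720 on the microbrush (11.8%), against 4 of 288 in aorta (1.39%) and 1 of 144 in blood (0.694%). Many of these lay in microbrush 4 and wire 2, with counts for only 14 and 32 of the 72 genes. The median microbrush library had counts for 69.5 of the 72. These 2 libraries had few genes detected in all (3831 and 9715), and the share of values at 0 over all genes was not counted. By group median, blood was the highest of the 4 groups for 51 of the 72 genes and the wire the lowest for 47. The same order was not counted over all genes, so it is not shown to be particular to these genes. Of all genes tested between wire and blood, 14.8% had every wire library below both blood libraries and 2.95% had every one above. The 72 genes took 0.156% ± 0.0338 of the counts on the microbrush (SD, n = 10), 0.142% ± 0.0213 on the wire (n = 4) and 0.126% ± 0.0154 in aorta (n = 4). The order depended on the denominator, because the mitochondrial genome took 30.9% to 49.4% of the counts on the wire, 9.79% to 16.2% in aorta and 3.32% to 49.1% on the microbrush. Of the nuclear counts alone, the 72 genes took 0.202% on the microbrush, 0.237% on the wire (0.177% to 0.321%) and 0.146% in aorta (0.123% to 0.172%), so that every wire library then lay above every aorta library. Their mean log2(CPM + 1) was 3.33 ± 0.91 on the microbrush, 2.88 ± 0.72 on the wire and 3.39 ± 0.35 in aorta, and it was 4.45 and 3.87 in the 2 blood libraries. Both blood values and those of microbrush 1, 5 and 9 lay above all 4 aorta values. The microbrush range, from 0.96 in microbrush 4 to 4.09 in microbrush 9, spanned both the wire and the aorta libraries. In bulk RNA, fewer cells of a type and less RNA per cell cannot be told apart.

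**Figure D1:**
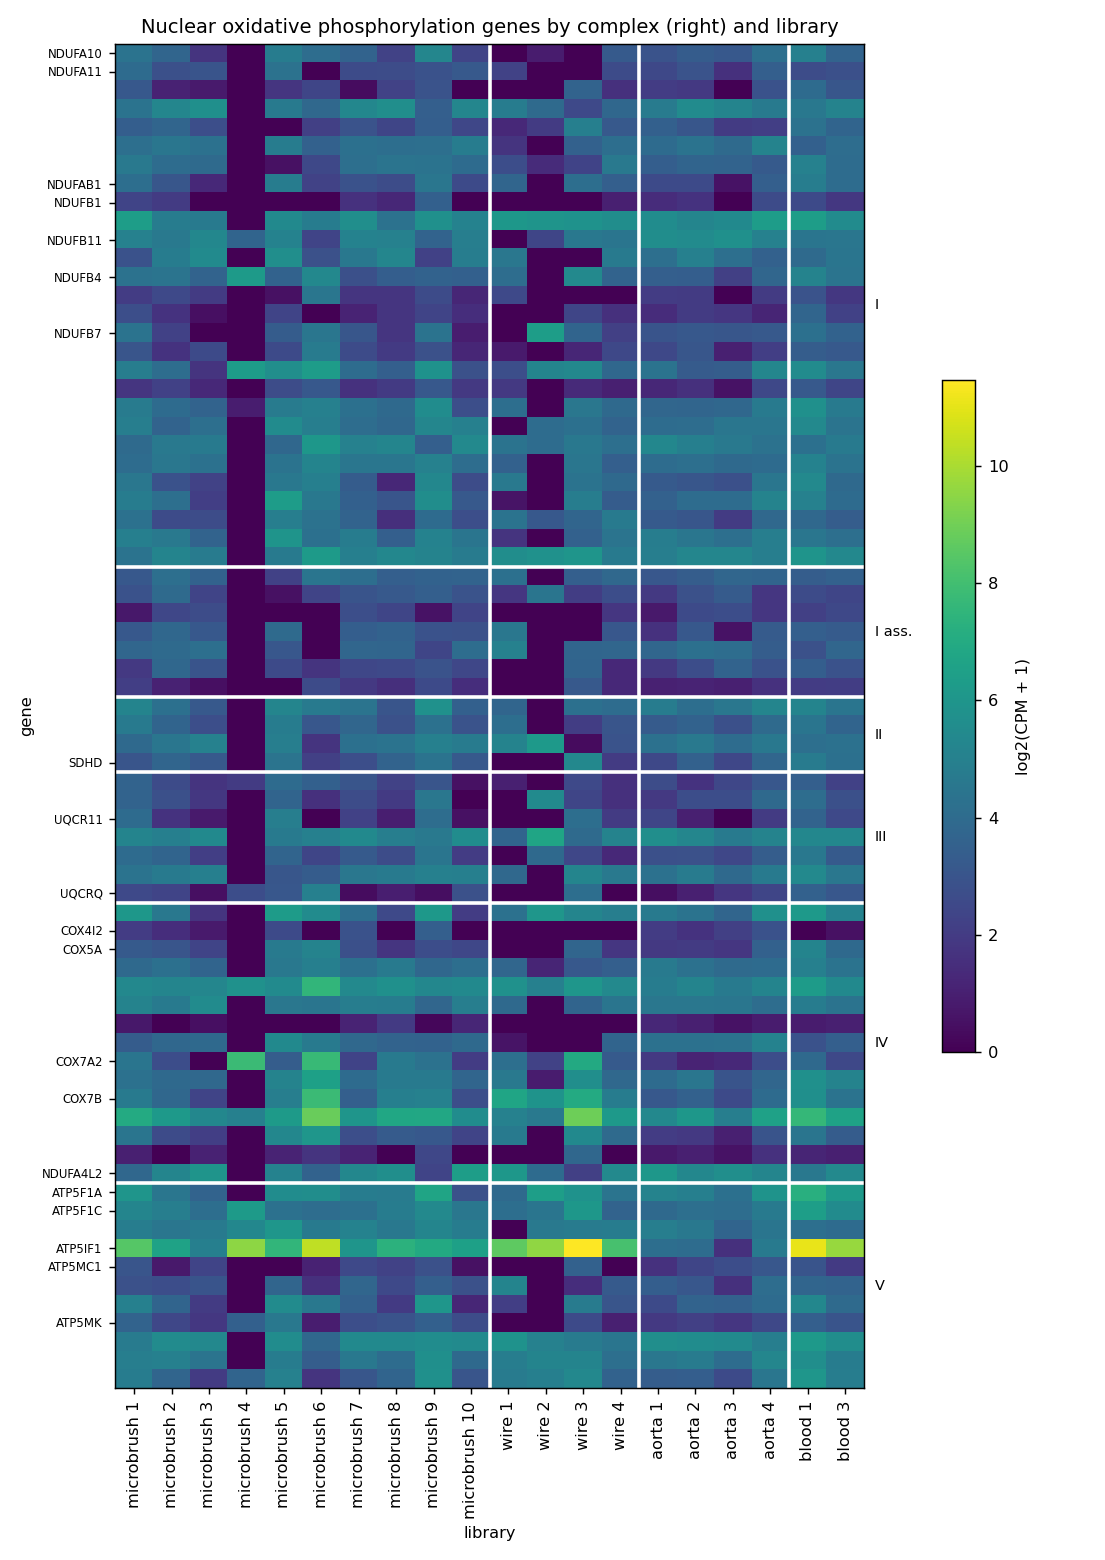
Level of each of the 72 genes (rows, by complex, with the genes named for their p-value in a comparison labelled) in each of 20 libraries (columns), as log2(CPM + 1) on a colour scale from 0 (dark) to high (yellow). ATP5IF1 stands out on the microbrush, on the wire and in blood against aorta, and microbrush 4 and wire 2 are dark for most genes.

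Blood and aorta differed most. Of the 72 genes, 69 passed the filter on low counts, and 29 were higher in blood and 1 was higher in aorta by edgeR's quasi-likelihood test at a Benjamini-Hochberg adjusted p under 0.05. These shares were 42% and 1.45%, where over all 17082 genes tested 18.7% were higher in blood and 9.82% in aorta. The median log2 fold change of aorta over blood was -1.03 over the 69 genes and 0.15 over all genes. Every aorta library lay below both blood libraries for 29 of the 69 genes (23.1% of all genes) and above both for 3, NDUFB11, COX4I2 and COX7A1 (18.4%). Overlap is judged on each comparison's own scaling, and some of these 29, among them ATP5ME, ATP5PB, NDUFAF5 and NDUFS1, overlapped in the levels scaled over all 20 libraries, which are the levels printed here. These 29 are not the same set as the 29 called, since COX4I1, for one, was called although its range overlapped. The count called depended on the libraries and on the fit: it was 6 of 70 without blood 1, 41 of 69 without blood 3, 0 of 66 with blood 2 included and 1 of 70 in a common fit of the 4 groups. As shares these were 8.57%, 59.4%, 0% and 1.43%, where 14.1%, 39.7%, 1.49% and 0.532% of all genes were called, so that without blood 1 and with blood 2 the share of the nuclear genes lay below that of all genes, untested. The markers of red cells and leukocytes moved with this difference. The 6 red cell markers summed to 68.9 to 87.9 CPM in aorta and to 41932 and 27490 CPM in blood, and the 6 leukocyte markers to 136 to 185 and to 4301 and 1884 CPM. Their part in the differences was not tested.

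In complex I, 11 of 28 subunits were higher in blood and none in aorta. NDUFAB1, the acyl carrier protein that also sits in the complex, was at 4.90, 4.95, 0.496 and 10.2 CPM in the aorta libraries and at 28.0 and 15.8 CPM in blood. The groups did not overlap, and the log2 fold change of aorta over blood was -2.36 (SE 0.52, edgeR adjusted p = 6.01e-05). NDUFB4, an accessory subunit of the membrane arm, was at 10.1, 9.91, 3.47 and 12.8 CPM in aorta and at 33.6 and 20.1 CPM in blood, again without overlap (log2 fold change -1.83, SE 0.48, edgeR adjusted p = 9.44e-04). NDUFS1, the largest of the core subunits that carry iron-sulphur clusters, was also higher in blood, by a log2 fold change of aorta over blood of -1.56 (SE 0.44). NDUFV1, the core subunit that binds NADH, did not pass the test and its ranges overlapped, with 17.4 to 28.5 CPM in aorta and 21.5 and 17.0 CPM in blood. NDUFB8, an accessory subunit of the membrane arm, was not called either (log2 fold change -1.33, SE 0.62), although both blood libraries, at 9.53 and 8.22 CPM, lay above the aorta range of 0.993 to 7.43 CPM. NDUFB11, another accessory subunit of the membrane arm, lay the other way, at 32.3 to 52.6 CPM in the aorta libraries and at 20.9 and 21.8 CPM in blood. The 7 assembly factors, which help build complex I and leave it, showed no call: 6 were tested, with log2 fold changes from -1.2 (NDUFAF5) to 0.32 (NDUFAF6).

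Complex II has no mitochondrially encoded subunit. SDHD, a membrane anchor, was at 4.55, 10.7, 4.47 and 12.8 CPM in aorta and at 25.9 and 17.9 CPM in blood (log2 fold change -1.69, SE 0.50, edgeR adjusted p = 0.00382). It was the only one of the 4 genes called and the only one whose groups did not overlap. The flavoprotein SDHA was at 16.8 to 36.6 CPM in aorta and 34.6 and 21.2 CPM in blood, and the iron-sulphur subunit SDHB was at 5.96 to 14.5 and at 21.1 and 11.9 CPM. SDHC, also a membrane anchor, was at 15.4 to 23.5 and at 17.2 and 18.3 CPM, with a log2 fold change of -0.06 (SE 0.48).

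In complex III, 3 of 7 genes were higher in blood, UQCRQ, UQCR11 and UQCRC2. UQCRQ, a small subunit beside cytochrome b, was at 0.350, 0.991, 2.48 and 4.26 CPM in aorta and at 10.8 and 7.60 CPM in blood (log2 fold change -2.51, SE 0.69, edgeR adjusted p = 0.00166). UQCR11, another small subunit, was at 4.2, 0.991, 0 and 2.98 CPM in aorta and at 11.6 and 4.72 CPM in blood (log2 fold change -2.26, SE 0.69). Both were without overlap, although blood 3 lay close to the highest aorta library for UQCR11. The remaining subunits had log2 fold changes from -0.98 to -0.35 and were not called. Among them were UQCRFS1, the Rieske iron-sulphur protein (-0.90, SE 0.44), CYC1, the cytochrome c1 haem protein (-0.81, SE 0.64), and the core protein UQCRC1 (-0.35, SE 0.42).

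In complex IV, 8 of 13 genes tested were higher in blood and 1 was higher in aorta. COX5A, a subunit on the matrix side that binds a thyroid hormone metabolite, was at 2.80, 2.97, 2.48 and 10.6 CPM in aorta and at 35.4 and 14.0 CPM in blood (log2 fold change -2.70, SE 0.52, edgeR adjusted p = 2.80e-06). COX7B, a small membrane subunit, was at 8.04, 10.7, 4.96 and 14.9 CPM in aorta and at 50.8 and 19.7 CPM in blood (log2 fold change -2.16, SE 0.46, edgeR adjusted p = 3.22e-05). Neither gene overlapped between the groups, and COX8A, COX7A2L, COX7C and COX6A1 were called in the same direction, also without overlap. COX4I1 and COX7A2 were called with overlapping ranges, because aorta 4 lay above blood 3 for both. The exception was COX4I2, the isoform of subunit 4 known from lung and smooth muscle, where it is tied to oxygen sensing. COX4I2 was at 3.15, 2.23, 3.47 and 6.38 CPM in aorta, and had no count in blood 1 and 2 counts in blood 3. From 40 counts in aorta and 2 in blood, the ratio of aorta to blood was 17.2 (exact 95% interval 4.47 to 147, counting error only), and edgeR's adjusted p was 0.00754. It was not called without blood 1 (edgeR adjusted p = 0.224) or by voom (adjusted p = 0.211). The smooth muscle markers moved with it, and their part was not tested. COX7A1, the isoform of subunit 7A known from muscle, also lay wholly above blood in aorta, at 18.2, 18.6, 18.9 and 33.2 CPM against 6.42 and 10.1 CPM, and was not called (log2 fold change 1.19, SE 0.52). COX6B2, an isoform known from testis, did not exceed 2.89 CPM in any library.

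In complex V, 6 of 11 genes were higher in blood and none in aorta. ATP5F1C, the rotating gamma shaft, was at 14.0, 17.3, 15.9 and 25.1 CPM in aorta and at 85.8 and 45 CPM in blood (log2 fold change -2.14, SE 0.42, edgeR adjusted p = 3.34e-06). ATP5PO, which ties the catalytic head to the stalk, was at 4.96 to 21.7 CPM in aorta and at 63.2 and 27.9 CPM in blood, and the alpha subunit ATP5F1A was at 17.9 to 58.3 CPM and at 149 and 72.5 CPM. All 3 were without overlap. The genes for the c-ring, which turns as protons pass, were not called: ATP5MC1 had a log2 fold change of -0.30 (SE 0.68) and ATP5MC3 of -0.68 (SE 0.54).

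ATP5IF1 encodes the small inhibitor that stops complex V from running backwards and splitting ATP, and it is also known for a role in haem synthesis in red cell precursors. It lies on chromosome 6 at 85307242 to 85309211 in Sscrofa11.1, the build named by the submitters, as RefSeq gives it under the symbol ATPIF1. Its level was 16.8, 15.4, 1.99 and 25.5 CPM in the aorta libraries and 2159 and 827 CPM in blood. On the wire it was 395, 757, 2822 and 280 CPM. The microbrush libraries ranged from 29.9 CPM in microbrush 3 to 1311 CPM in microbrush 6, with a median of 143 CPM. Every aorta library lay below every other library of the series, and the wire and blood ranges overlapped. The log2 fold change of aorta over blood was -6.94 (SE 0.67, edgeR adjusted p = 2.37e-22), the smallest p of the 72 genes. Before scaling between libraries the wire values ran from 285 to 959 CPM and the blood values were 1966 and 1249 CPM, without overlap. The overlap of wire and blood came with the scaling, which raised wire 3 (factor 0.34) and lowered blood 3 (factor 1.51). In blood 2 no count among 5634 allows up to 532 CPM, below both other blood libraries.

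This single gene made up 50.1% and 38.9% of the counts of the 72 genes in blood and 23.3% to 59.1% on the wire. Its share was 3.16% to 54.2% on the microbrush (median 9.25%) and 0.235% to 1.88% in aorta. Without ATP5IF1, the other 71 genes took 0.196% of the counts in both blood libraries, 0.125% ± 0.0146 in aorta (SD, n = 4), 0.133% ± 0.0460 on the microbrush (n = 10) and 0.0849% ± 0.0125 on the wire (n = 4). With ATP5IF1 the mean wire share lay above the aorta mean, with overlapping ranges, and without it all 4 wire libraries lay below all 4 aorta libraries, between 0.0663% and 0.0939% against 0.106% to 0.142%. This separation was not there over nuclear counts, where the shares without ATP5IF1 were 0.131% to 0.144% on the wire and 0.123% to 0.169% in aorta. The 6 red cell markers summed to 1969 to 35647 CPM on the wire and to 169 to 5094 CPM on the microbrush. The platelet markers (4 of 6 in the table) reached 4400 CPM in microbrush 6, 2961 CPM in wire 3 and 1287 CPM in microbrush 4. Their part in the level of ATP5IF1 was not tested.

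**Figure D2:**
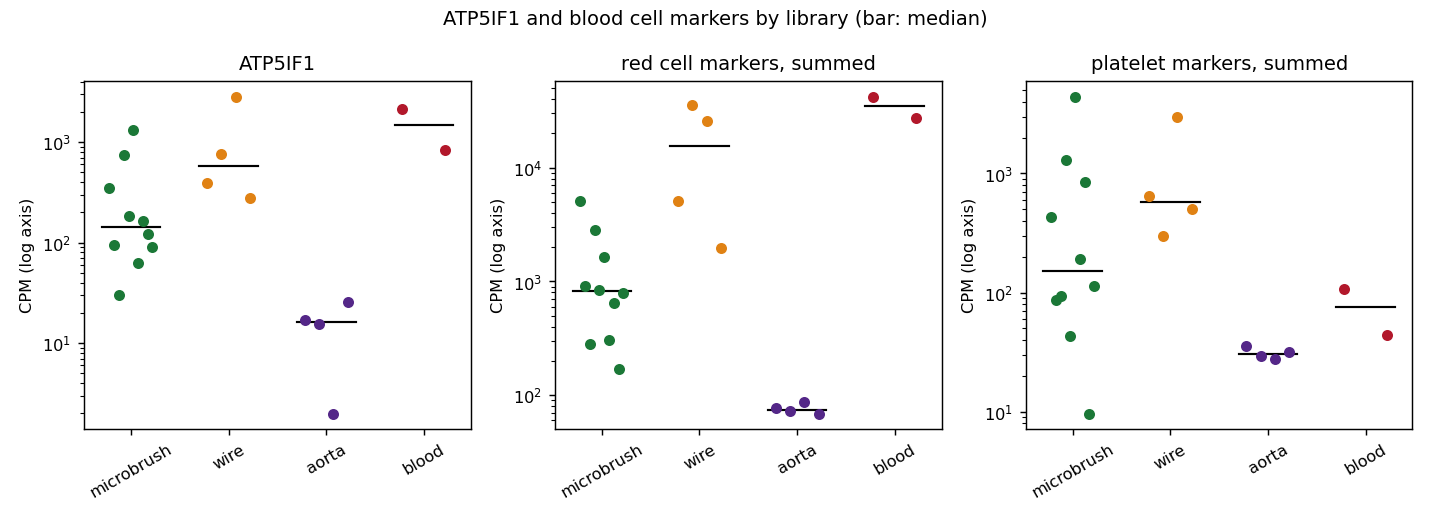
Level of ATP5IF1 and summed levels of 6 red cell and 4 platelet markers (CPM, log axes) in each of 20 libraries by group, with a bar at the group median. The aorta libraries are the lowest for ATP5IF1 (1.99 to 25.5 CPM) and for the red cell markers, and blood and the wire are high for both.

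On the wire against aorta, 2 of 55 genes tested were higher on the wire and none was higher in aorta. That is 3.64% of those tested, where 2.8% of all genes were higher on the wire, 0.764% in aorta and 3.57% in either, so the share lay near the background. ATP5IF1 had a log2 fold change of 6.18 (SE 1.02, edgeR adjusted p = 0.00920). COX7B was at 105.4, 59.0, 126 and 27.3 CPM on the wire and, as above, at 4.96 to 14.9 CPM in aorta (log2 fold change 3.10, SE 0.63, edgeR adjusted p = 0.0224). Both groups of values were without overlap. These were also the only 2 genes with every wire library above every aorta library (6.64% of all genes), and 3 lay wholly below, NDUFB11, COX5B and COX7A1 (11.8% of all genes). The 2 calls depended on single libraries: without aorta 1 or without aorta 2 neither passed (ATP5IF1 adjusted p = 0.0578 and 0.0576 by edgeR), and COX7B was also lost without aorta 3, aorta 4 or wire 1. The median log2 fold change of the genes tested was 0.24, against -0.29 over all genes, and it fell on either side of 0 under other settings.

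**Figure D3:**
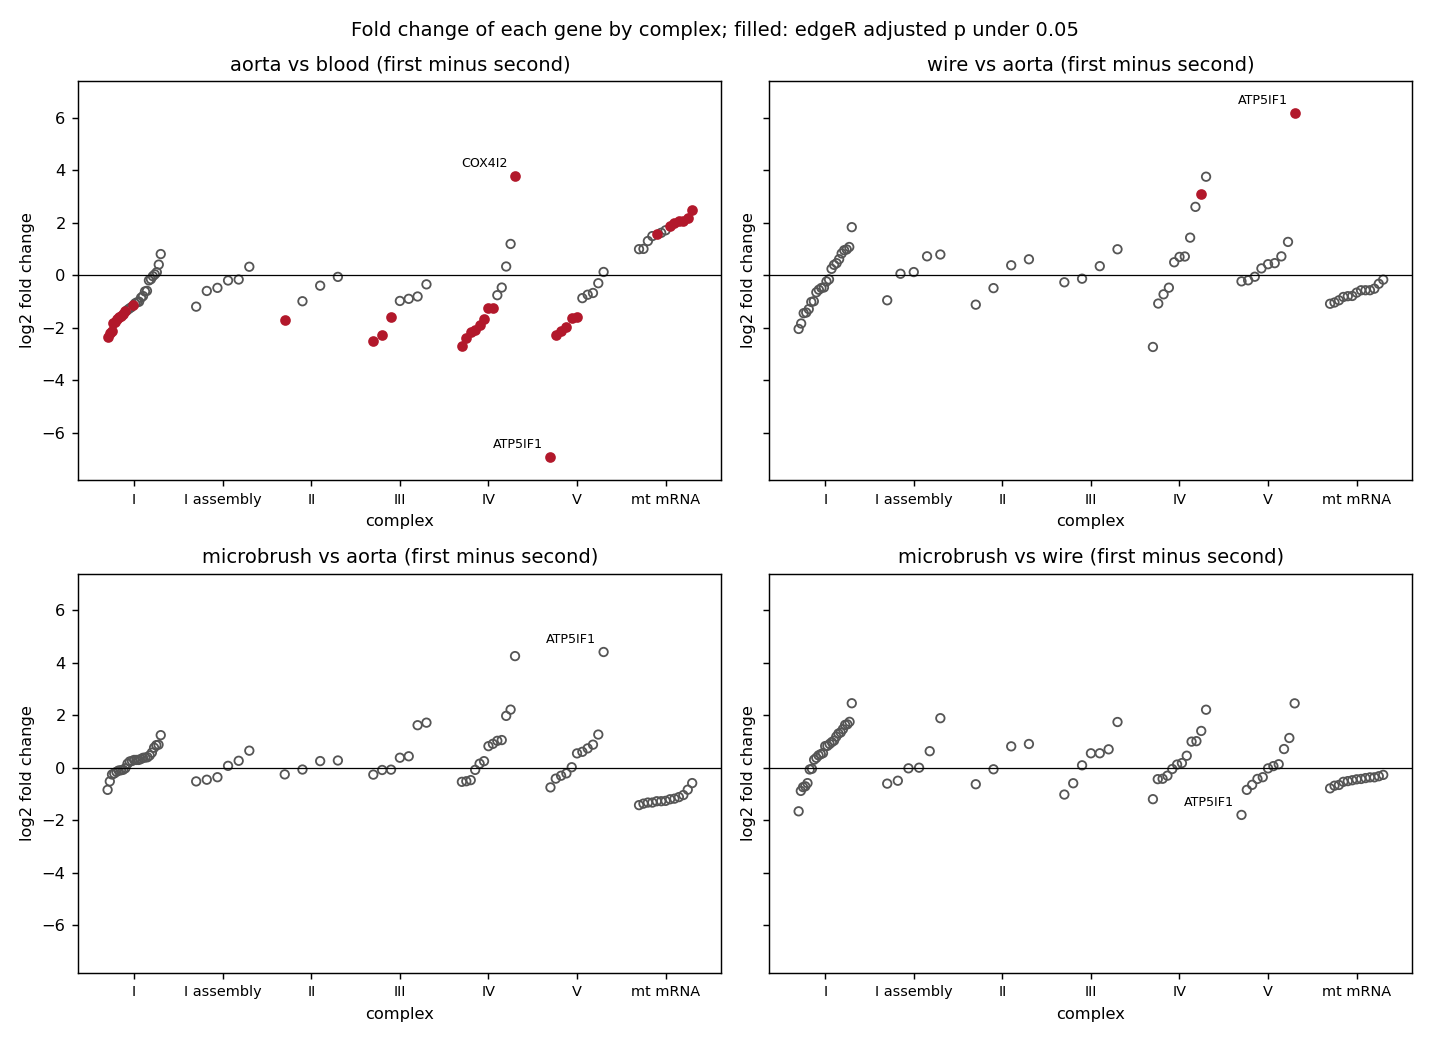
Log2 fold change of each gene tested (points, ordered within each complex), first group over second, in 4 comparisons, with the 13 mRNAs of the mitochondrial genome at the right of each panel. Filled points have an edgeR adjusted p under 0.05: 30 of 69 nuclear genes between aorta and blood, 2 of 55 between wire and aorta and none in the lower panels. Aorta lay below blood for most nuclear genes and above it for all 13 mitochondrial mRNAs.

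Between the microbrush and the wire none of 65 genes tested was called by edgeR, DESeq2 or voom. Of all 16439 genes, DESeq2 called 0.614%, and edgeR and voom called none (0%). At an unadjusted p under 0.05 by edgeR there was 1 of the 65 and 518 of all genes. That gene was ATP5IF1, with a log2 fold change of microbrush over wire of -1.79 (SE 0.85). Its 10 microbrush libraries overlapped the wire through microbrush 1, 4 and 6. The next smallest p-values belonged to ATP5MK, a small membrane subunit of complex V, and NDUFA10, an accessory subunit of complex I. ATP5MK was at 0.868 to 22.8 CPM on the microbrush and at 0, 0, 5.03 and 1.01 CPM on the wire (log2 fold change 2.46, SE 1.55). NDUFA10 was at 0 to 37.3 CPM and at 0, 0.843, 0 and 8.60 CPM (log2 fold change 2.47, SE 1.56). NDUFB7, an accessory subunit, had a log2 fold change of -1.65 (SE 1.26), which rested on 83.1 CPM in wire 2, since without that library it was 0.74. In no gene did every microbrush library lie above every wire library (0.0182% of all genes) or below (0.0426%). Over the 65 genes the median log2 fold change was 0.39, against 0.17 over all genes. This order turned without wire 1 (0.31 against 0.44), without wire 4 (0.19 against 0.36) and in pig 248K alone (0.07 against 1.11), and without wire 3 the median was 0.77. A test of whether the device difference itself differed between the pigs called none of the 65 genes (smallest edgeR adjusted p = 0.176), and 4 of the 65 (6.15%) had an unadjusted p under 0.05 against 19.7% of all genes. For the organs it also called none, with 1 of 65 (1.54%) at an unadjusted p under 0.05 against 2.4% of all genes.

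Between the microbrush and aorta none of 66 genes tested was called, with 0.125% of all genes called in either direction (0.0596% higher on the microbrush and 0.0656% in aorta). At an unadjusted p under 0.05, edgeR found 805 of all 16776 genes and 2 of the 66. ATP5IF1 had a log2 fold change of 4.42 (SE 1.13, edgeR adjusted p = 0.164) and COX7A2, a small membrane subunit of complex IV, of 4.26 (SE 1.40, edgeR adjusted p = 0.353). COX7A2 was at 2.80, 1.24, 1.49 and 5.53 CPM in aorta and ranged from 0 in microbrush 3 to 226 CPM in microbrush 4, with 211 CPM in microbrush 6 and a median of 14.3 CPM, so that the groups overlapped. Only ATP5IF1 and COX6A1 had every microbrush library above every aorta library (0.435% of all genes), and no gene lay wholly below (1.38%). COX6A1, the isoform of subunit 6A found in most tissues, was at 24.8 to 35.3 CPM in aorta and at 35.7 to 187 CPM on the microbrush. DESeq2 called both ATP5IF1 and COX7A2, at adjusted p-values of 1e-04 and 0.0450, with 1.26% of all genes called, and voom called 1 of the 66 genes, or 1.52%, against 4.48% of all genes. NDUFB11 and ATP5MC1 had the smallest p-values among genes lower on the microbrush, with log2 fold changes of -0.83 (SE 0.67) and -0.74 (SE 1.04).

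Against blood, the microbrush and the wire each gave no call among the nuclear genes, with 0.0168% and 0.0486% of all genes called. The median log2 fold change of microbrush over blood was -0.42 over 70 genes tested (0.13 over all genes), but 0.01 without blood 1, -1.08 without blood 3 and 0.06 with blood 2. That of wire over blood was -1.06 over 69 (-0.34 over all genes). In 16 of those 69 genes every wire library lay below both blood libraries on that comparison's scaling (14.8% of all genes), and 4 of the 16, NDUFAB1, NDUFB6, NDUFS4 and CYC1, overlapped in the levels scaled over 20 libraries. In none did every wire library lie above (2.95%). At an unadjusted p under 0.05, edgeR found 1 gene of 70 on the microbrush (670 of all 17832 genes) and none of 69 on the wire (724 of all 16461 genes). The 1 gene was ATP5IF1 (log2 fold change -2.22, SE 1.02). DESeq2 called none in either comparison (1.7% of all genes on the microbrush and 1.49% on the wire). By voom, 7 of 70 were called on the microbrush (5.93% of all genes) and 1 of 69 on the wire (2.21% of all genes), all lower than in blood. The alpha subunit ATP5F1A had the next smallest p below blood on the microbrush and the smallest on the wire, with log2 fold changes of -1.62 (SE 1.04) and -1.47 (SE 0.78). NDUFB1, an accessory subunit of complex I, had 2 counts on the wire and 37 in blood, a ratio of blood to wire of 23.0 (exact 95% interval 5.94 to 197, counting error only), while edgeR's test between libraries gave an unadjusted p of 0.134. On the microbrush every library lay above both blood libraries for 1 gene, ATP5F1D, and below both for ATP5PB (0.875% and 3.13% of all genes). The microbrush, wire and aorta comparisons with blood share the same 2 blood libraries.

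Between kidney and liver microbrush libraries, edgeR, DESeq2 and voom called none of 62 genes tested. Of all genes, DESeq2 called 0.44%, and edgeR and voom called 0%. At an unadjusted p under 0.05, edgeR found 238 of all 15013 genes and 1 of the 62. That gene was COX7A2, with a log2 fold change of kidney over liver of -3.29 (SE 1.2), and its 2 highest libraries, microbrush 4 and 6, were both from the liver. NDUFA11 and NDUFA8, accessory subunits of complex I, were the only genes with every kidney library above every liver library on that comparison's own scaling (0.453% of all genes), and both overlapped in the levels scaled over 20 libraries, and no gene lay the other way (0.0333%). NDUFA11 had a log2 fold change of 1.79 (SE 1.36). ATP5IF1 (-1.40, SE 0.94) and NDUFA4L2 (1.15, SE 1.12) overlapped between the organs.

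Microbrush 6 and wire 3, both from the liver but from different pigs, had high printed levels of several small subunits of complex IV. The size of these levels, and in part their rank, depended on the scaling. Both libraries had scaling (TMM) factors of 0.34, where the other 18 had 0.66 or more, so their levels are raised against the others. COX7C was at 463 and 489 CPM in them after scaling, against 23.6 to 199 CPM elsewhere. Before scaling it was at 157 and 166 CPM, below the 181 CPM of blood 1 and above every other library. COX7B was at 227 and 126 CPM after scaling and at 76.9 and 43.0 CPM before, when wire 1 was highest at 92.4 CPM and microbrush 6 came next. Wire 2 (53.9 CPM) and blood 1 (46.2 CPM) then lay above wire 3. COX7A2 was at 211 and 123 CPM after scaling and at 71.6 and 41.8 CPM before, and on either scale microbrush 4 was higher and every other library lower. ATP5IF1 before scaling was at 445 CPM in microbrush 6, below microbrush 4 (703 CPM) and wire 2 (692 CPM).

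The nuclear genes and the mitochondrial mRNAs did not move together. The 13 mitochondrial mRNAs, which encode the remaining subunits of complexes I, III, IV and V, took 4.44% to 7.83% of the counts in aorta and 1.39% in each of the 2 blood libraries. All 13 had a positive log2 fold change of aorta over blood, with a median of 1.71, and 7 were called higher in aorta. These were CYTB, the cytochrome b of complex III (log2 fold change 2.0, SE 0.76, edgeR adjusted p = 0.0332), and the complex I subunits ND1, ND3, ND4, ND4L, ND5 and ND6. Most nuclear subunits of the same complexes lay the other way, with 60 of the 69 nuclear genes tested at a negative log2 fold change. Per count in the 72 nuclear genes there were 34.6 to 56.5 mitochondrial mRNA counts in aorta and 3.54 and 4.33 in blood. With ATP5IF1 left out these became 35.3 to 57.4 and 7.10 and 7.09, still without overlap. The ratio ran from 4.43 to 48.7 on the microbrush and from 1.68 to 35.4 on the wire, so both devices gave libraries near blood and libraries near aorta.

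**Figure D4:**
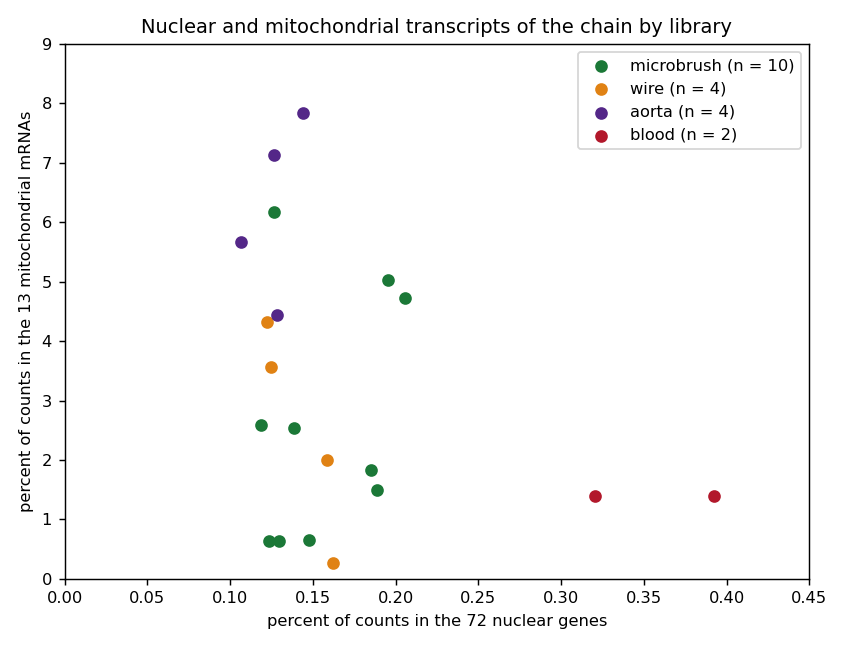
Percent of each library's counts in the 72 nuclear genes (x axis) and in the 13 mitochondrial mRNAs (y axis), 1 point per library, coloured by group. Blood lies at the right (0.321% and 0.392%) and low, aorta at the left and high (4.44% to 7.83%), and the devices spread between 0.27% and 6.18% on the y axis.

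Some subunits of complex IV come in pairs of isoforms, and the share of an isoform within its pair does not depend on the scaling between libraries. It is a share of counts, not corrected for gene length. Libraries with under 20 counts in a pair were left out, 4 pairs could be formed, and 12 exact two-sided permutation tests were made between microbrush, wire and aorta. None passed after Benjamini-Hochberg adjustment (smallest adjusted p = 0.137), in a design in which 4 libraries against 4 can give no exact p below 0.0286. COX4I2 made up 11.11%, 10.2%, 21.9% and 10.6% of the counts of COX4I1 and COX4I2 in aorta and had no count in any of the 4 wire libraries, which allows shares of up to 2.0% to 5.26%. These groups did not overlap (exact permutation p = 0.0286, adjusted p = 0.137). The level of COX4I2 in aorta was 14.3 times that of a floor of 3 counts over the wire libraries. The exact 95% interval of the ratio of aorta to wire, counting error only, begins at 11.09. Of the 6 microbrush libraries with enough counts, 5 had COX4I2, at 4.43% to 27.3%, and microbrush 6 had none. The smooth muscle markers summed to between 20689 CPM (microbrush 2) and 93833 CPM (microbrush 5) in those 5, and to 1790 CPM in microbrush 6. Their part in the share of COX4I2 was not tested. The share was 0% and 1.23% in blood.

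COX7A1, the isoform of subunit 7A known from heart and skeletal muscle, made up 85.7% to 93.8% of the counts of COX7A2 and COX7A1 in aorta. On the microbrush it ran from 0% in microbrush 4 to 100% in microbrush 3 (median 53.5%, n = 10), lower in mean by 37.6 percentage points (exact p = 0.0320, adjusted p = 0.137). On the wire it was 3.35%, 0% and 58.9% in the 3 libraries with enough counts, and in blood 30.7% and 69.0%. All 3 wire libraries, both blood libraries and 9 of the 10 microbrush libraries lay below the lowest aorta library. COX6A2, the isoform of subunit 6A known from striated muscle, held 31.4% to 46.5% of its pair in aorta, 0% to 55.2% on the microbrush and 0% to 33.3% on the wire, with overlap throughout. NDUFA4L2, which is known as a target of the hypoxia response, held 94.5% to 99.0% of the counts of NDUFA4 and NDUFA4L2 in aorta and 94.9% and 97.6% in blood. It held 100% in 3 wire libraries and 20.6% in wire 3, and 48.1% to 100% on the microbrush. NDUFA4 itself was at 0.496 to 2.13 CPM in aorta and at 1.24 and 1.03 CPM in blood. It had no count in the 3 wire libraries with a share of 100%. The high shares of NDUFA4L2 thus rest on very few counts of NDUFA4, and why these were few was not tested. They do not show that NDUFA4L2 is the main isoform in aorta, in blood or on the wire.

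**Figure D5:**
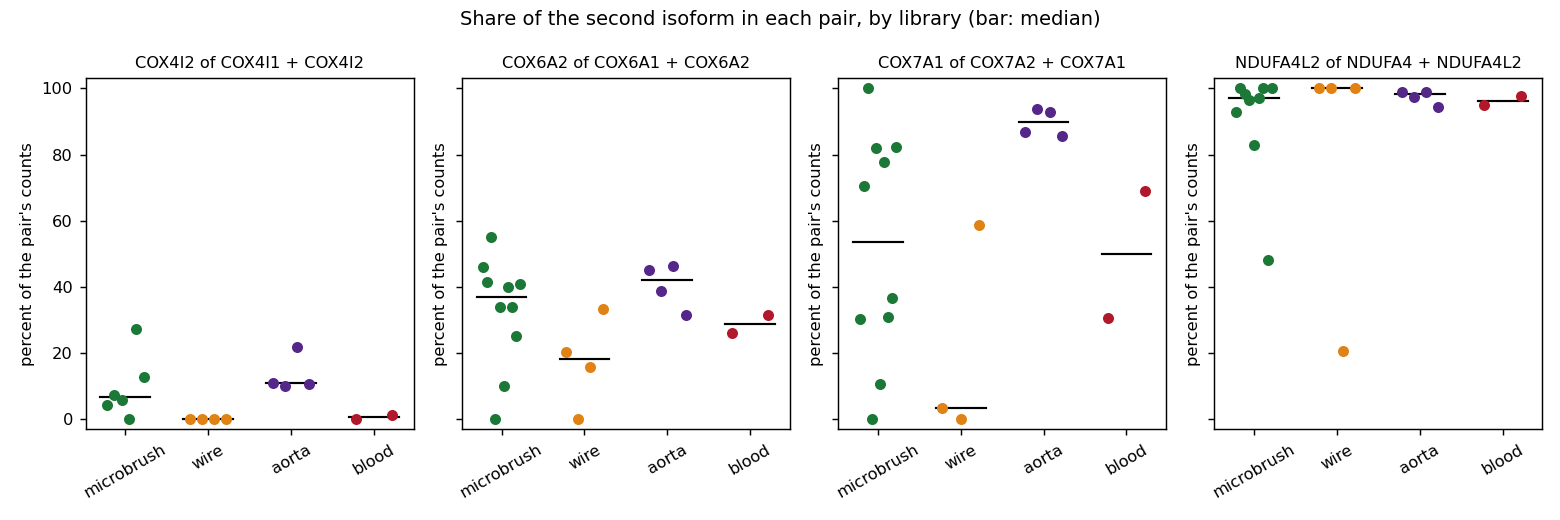
Percent of the pair's counts held by the second isoform (y axis) in each library with at least 20 counts in the pair, by group, with a bar at the median. COX4I2 is at 0% in all 4 wire libraries and at 10.2% to 21.9% in aorta, and COX7A1 lies above 85% in aorta and is spread widely on the devices.

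Genes of tissues that were not sampled had counts as well. ALB, the albumin gene of hepatocytes, was at 12.5 ± 5.29 CPM in aorta (SD, n = 4) and at 7.25 and 13.6 CPM in blood, and CKM, the creatine kinase of striated muscle, was at 47.2 ± 5.34 CPM in aorta. TNNT2, the cardiac troponin T gene, had no count in 19 of the 20 libraries. Whatever gives these counts, its part in the levels of the nuclear genes was not tested.

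Other genes of the mitochondrial energy pathways were counted from lists, to be read against the 18.7% of all genes that were higher in blood. The shares were 29.4% for the tricarboxylic acid cycle and 25% for glycolysis, above that background. They were 16.7% for the regulators, 16.1% for the mitochondrial ribosomal proteins and 7.14% for the assembly factors, below it. The lists of carriers, electron carriers and hypoxia genes had shares of 50%, 28.6% and 28.6%, also above it, from 6 or 7 genes tested each. These differences from the background were not tested. Between aorta and blood, 5 of 17 genes of the tricarboxylic acid cycle tested were higher in blood, led by SUCLG2 and SUCLG1, subunits of succinyl-CoA ligase (log2 fold changes -2.01, SE 0.42, and -1.77, SE 0.43). Of the carriers of adenine nucleotides and phosphate, 3 of 6 were higher in blood, UCP2 with the smallest p (-5.24, SE 0.47), then VDAC3, a channel of the outer membrane (-2.59, SE 0.62). Of 28 assembly factors outside the gene rule, 2 were higher in blood: COX17, the copper chaperone of complex IV (-4.61, SE 0.48), and LRPPRC, which stabilises mitochondrial mRNAs (-2.20, SE 0.42). Cytochrome c itself, CYCS, was higher in blood (-1.97, SE 0.50), as was GPD2, and these were the 2 calls among 7 other electron carriers. Of the 18 regulators of mitochondrial biogenesis, 3 were higher in blood, including TFAM, which packages mitochondrial DNA (-1.61, SE 0.43). Of the mitochondrial ribosomal proteins, 10 of 62 were higher in blood, MRPS25 first (-2.82, SE 0.46), and 1 in aorta, MRPS26 (1.97, SE 0.49). Glycolysis had 4 of 16 genes higher in blood, LDHA (lactate dehydrogenase A) first, at -3.60 (SE 0.44), and the hypoxia response list had 2 of 7, with PDK1 at -2.77 (SE 0.43). No gene of these lists other than the 1 ribosomal protein and the mitochondrial mRNAs was higher in aorta.

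Between wire and aorta, where 2.8% of all genes were higher on the wire, the same lists gave 5 calls, all higher on the wire. These were LDHA (log2 fold change 5.09, SE 0.85) and the aldolase ALDOA (4.77, SE 0.80) of 16 glycolysis genes, UCP2 (4.25, SE 0.93) of 6 carriers, GPD2 (4.38, SE 0.72) of 7 electron carriers and EGLN3, an oxygen-sensing prolyl hydroxylase (3.14, SE 0.55), of 7 hypoxia genes. None of 17 genes of the tricarboxylic acid cycle, 25 assembly factors, 52 mitochondrial ribosomal proteins or 13 mitochondrial mRNAs was called there. In the comparisons of the microbrush with the wire, aorta and blood, of the wire with blood and of the organs, edgeR called no gene of any list.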

How the data were processed

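The authors deposited 1 table of estimated counts for 21 libraries, by Ensembl gene, not scaled between libraries. The RNAdvance Tissue kit gave the RNA and SMARTer Pico the libraries, per the labels. Salmon and DESeq2 were used with Sscrofa11.1, per the submitters' processing notes; versions and strand settings are not given in the sources used here. Of all values, 11.9% were not whole, and 24 of the 72 genes had such a value (differing from a whole number by over 0.005). Counts were rounded before the tests.

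Members and gene lists were chosen with earlier results of these data known. Groups, pigs and organs come from the labels; library numbers follow accession order and pair nothing. Blood 2 was left out because it had under 100000 counts. Fits used only the libraries compared (R 4.3.3, edgeR 4.0.16, filterByExpr, minimum count 10, TMM scaling, robust quasi-likelihood test, Benjamini-Hochberg adjustment over all genes tested, threshold 0.05). Fold changes are log2; the SE is the fold change divided by the square root of F. Levels are CPM after TMM over 20 libraries, and log2(CPM + 1) uses a pseudocount of 1, so they can differ slightly from a comparison's own scaling. The files give no gene lengths, so levels of different genes are not set against each other. Isoform shares were compared by exact permutation tests (scipy 1.17.1).

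Named were, per comparison, complex and direction, the 2 called members with the smallest p (without calls, the 2 smallest per direction), a fixed set of members, and up to 2 called genes per list; the other list genes and members named were chosen after their values were seen. Of the members, 47 matched RefSeq by symbol, and 48 with a synonym. Chi-square comparisons of libraries within each group found no duplicate (lowest value per degree of freedom 5.905, microbrush 3 and 10). Libraries of different groups were not compared in this way. The test was checked on simulated counts with the same spread for every gene and large changes only. That check does not cover small changes or the wide spread of the device libraries. Alternatives were RLE scaling, no filter, a minimum count of 50, DESeq2 1.42.0, limma 3.58.1 voom with quality weights, mitochondrial genes left out, a common fit of 4 groups, each library left out, blood 2 included, the pig as a replicate block, and each pig or organ alone. The interactions, the left-out pairs of libraries, the sums without ATP5IF1, the shares of nuclear counts, the unscaled levels and the low-count ratios were chosen after seeing the data.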

Additional observations from a re-analysis of the deposited data

Results flagged for a closer look

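Samples far from the others of their group, by the gap to the nearest sample over the group's range (Dixon's 95% limit), were found in 13 of 40 groups of values checked, where chance flags about 1 in 20. Microbrush 4 was the lowest microbrush library in 5 of them, with a mean log2(CPM + 1) of 0.96 over all 72 genes, 0.61 over complex I, 0 over the complex I assembly factors, 0 over complex II and 0.68 over complex III. These 5 values come from 1 library with few genes detected and are not independent. Wire 2 was far below the other wire libraries for the complex I assembly factors (0.64) and complex II (1.54), and wire 3 was far above them for complex V (5.08), which holds ATP5IF1. The mitochondrial mRNA count per nuclear count was far above the other microbrush libraries in microbrush 7 (48.7) and far below the other aorta libraries in aorta 4 (34.6). The share of NDUFA4L2 in its pair was far below the rest in microbrush 9 (48.1%) and in wire 3 (20.6%), and the share of COX4I2 was far above the rest in aorta 3 (21.9%), from 7 of 32 counts.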

How the results depend on the processing

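The count of nuclear genes called between aorta and blood (30) depended most on the setting. It was 18 with a minimum count of 50 (43.9% of 41 genes tested, against 37.8% of all genes). It was 1 in the common fit of 4 groups (1.43% against 0.532%) and 0 with blood 2 included (0% against 1.49%). With a library left out it was 6 to 41 (8.57% against 14.1%, and 59.4% against 39.7%). Without blood 1 it was 6, all among the 30, and the median log2 fold change was -0.44; without blood 3 it was 41, with 30 shared, and -1.49 (-1.03 with both). The count between wire and aorta was 1 in the common fit (1.43%, against 0.746% of all genes) and 0 to 3 with a library left out. The 3 came without wire 4 and were 5.17%, against 9.55% of all genes. The 0 came without aorta 1 or aorta 2, where 0.486% and 0.399% of all genes were called. DESeq2 called 2 genes and voom 1 between microbrush and aorta (1.26% and 4.48% of all genes), and voom called 7 between microbrush and blood (5.93%) and 1 between wire and blood (2.21%). With blood 2 the median of wire over blood was -0.37. The cause of these changes was not tested. RLE scaling moved the median of all genes by over 0.1 in 6 of 7 comparisons, most in microbrush over blood, from 0.13 to 0.69, where the members' median moved from -0.42 to -0.04. The members' median changed sign in 9 of 16 settings for wire over aorta (-0.27 to 0.24), 3 of 12 for microbrush over aorta (-0.11 to 0.46), 2 of 13 for microbrush over blood (-1.08 to 0.06) and 1 of 17 for kidney over liver (-0.03 to 0.65). It kept its sign in 17 settings for microbrush over wire but ran from 0.07 to 0.97. For aorta over blood (14 settings) and wire over blood (15) it kept its sign and lay below the median of all genes throughout.

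Over nuclear counts only, an alternative chosen after seeing the data, the share of counts was 0.202% on the microbrush, 0.237% on the wire and 0.146% in aorta, and without ATP5IF1 0.138% on the wire, 0.144% in aorta and 0.21% in blood. Mean log2 levels were 1.85 and 3.86 on the wire with pseudocounts of 0.1 and 5, 4.00 in aorta with 5, and 3.75 and 4.79 in blood with RLE scaling and without mitochondrial genes. Reversed values were, for microbrush over wire, ATP5IF1 in pig 243K alone (0.10) and NDUFB7 by voom (1.08), without wire 2 (0.74), in pig 243K alone (2.66) and in the liver alone (0.98) (-2.06 to 0.74 with 1 library left out), and for microbrush over blood COX7A2 by voom (-1.004). The NDUFA4L2 share difference reversed without wire 3 between microbrush and wire (-9.39 percentage points; -9.39 to 17.1 with 1 library left out) and between wire and aorta (2.51; -23.9 to 2.51), and with a minimum of 100 counts between microbrush and aorta (0.309).

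With the pig as a replicate block, 0 nuclear genes were called in microbrush against wire, microbrush against blood, wire against blood and kidney against liver, and no call changed. Of all genes, 0%, 0.0224%, 0.103% and 0% were called, in that order. The medians of the nuclear genes were 0.36, -0.45, -1.52 and 0.37. No paired analysis was possible for aorta because all its libraries came from a pig that gave no other sample. Depth limits the genes with few counts most, above all in microbrush 4 and wire 2.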
